A study of Homo sapiens with 3 samples.

Results

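The genes described here carry iron through the absorptive cell of the gut, and were followed in Caco-2 cells after depletion of OCC-1 (gene symbol C12orf75). Caco-2, grown from a human colon tumour, is a cell line used widely as a model of the gut lining because it can take on features of enterocytes. The set lists 10 genes by name, and every probe set that the platform annotation assigns to a single one of them was taken. This gave 29 probe sets of 8 genes, out of 44988 probe sets with a single gene symbol. The 8 genes are SLC40A1, HEPH, SLC11A2, CYBRD1, TFRC, TFR2, FTL and ACO1, and FTH1 and IREB2 were not analysed here because no probe set is named for them.

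The study used 3 arrays of total RNA, 1 per culture. The control culture expressed shCTRL, a short hairpin RNA without a target, and the knockdown cultures expressed shOCC-1-1 (line 1) or shOCC-1-2 (line 2), independent hairpins against OCC-1. All of them had received lentivirus, and 5 days of selection with puromycin (1 µg per ml) were followed by 24 h without it, in medium with 20% serum. The labels do not say whether a line is a clone or a pool, nor how far the cells had differentiated. The control has n = 1 and the knockdown group n = 2, so no single line has a replicate check, and the SD given below is that between lines 1 and 2.

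Dietary iron enters the enterocyte from the gut lumen after reduction, is stored in ferritin or used, and leaves on the blood side through ferroportin while a copper oxidase converts it for loading onto transferrin. Cells also take up transferrin-bound iron through the transferrin receptor. Many of these mRNAs are controlled by iron regulatory proteins, which bind a stem-loop called the iron-responsive element and block translation when it lies near the start of the mRNA, or protect the mRNA from decay when it lies near the end. An array reads mRNA, so control of translation or of protein breakdown is not seen.

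The element in FTL, the ferritin light chain, is shown because it is the site through which iron sets ferritin output, and that in ALAS2, the erythroid enzyme of heme synthesis, is shown as a comparison from the wider list. The capitals mark the letters searched for, which are the core of the element: a C, any 5 bases, then CAGTGN, read on the transcribed strand within the first 50 transcribed bases. The sequences are from RefSeq, build GRCh38.p14, at chr19:48965329-48965358 on the plus strand for FTL and at chrX:55030943-55030972 on the minus strand for ALAS2.
FTL: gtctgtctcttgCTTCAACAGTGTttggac
ALAS2: tcattcgttCGTCCTCAGTGCagggcaaca
The match begins at base 33 of the FTL transcript and at base 15 of the ALAS2 transcript. Of 15 such windows available for 8 of the listed genes, 1 held the letters, that of FTL. Over all 35116 windows the share was 1.67% on the transcribed strand and 3.29% on either strand. No match says only that these letters are not in this window.

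OCC-1 itself stood at 42.5% of the control in line 1 and 32.5% in line 2 (intensity 1219 in the control, then 518 and 397). Array medians lay between 182 and 186. Epithelial markers had probe sets for 13 of 14 genes named, and 13 of these were above the intensity filter. The filter is a mean log2 intensity of at least 7.52, or 184 on the linear scale. In the control the brightest probe sets of these markers ran from 182 (KRT20) to 10002 (KRT18). Their summed intensity ran from 120465 in the control to 138075 in line 1. Probe sets above the filter were found for 4 of 9 leukocyte genes (summed intensity 1356 to 1761), 3 of 6 fibroblast genes (1141 to 1173) and 1 of 4 endothelial genes (402 to 432). So were those of 6 of 6 hepatocyte-like genes (32645 to 36770) and of 4 of 6 erythroid genes (2231 to 2418), all 4 that had a probe set. These 4 read 291 (GATA1) to 662 (SLC4A1) in the control, so passing the filter does not show that a marker is expressed. LYZ, listed here as a leukocyte marker, had 381, 740 and 606 (control, lines 1 and 2) in its brightest probe set. Its probe set 11715461_at had 252, 329 and 262. PTPRC, the pan-leukocyte marker, lay at 75.5 to 80.1. The ratio of 3′ to 5′ control probe sets, a measure of RNA integrity, was 6.15 in the control and 7.13 and 7.38 in lines 1 and 2 for ACTB, and 1.10, 1.05 and 1.08 for GAPDH. The 23 background control probe sets differed from the control by -0.37 to 0.06 (log2) in line 1 and by -0.23 to 0.04 in line 2. The part of RNA integrity and background in the differences below was not tested.

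Of the 29 probe sets 20 passed the filter, and none of these 20 was 1.5-fold from the control in both lines. Among all 22670 probe sets above the filter the share past that size was 1.52%. The differences of the 20 probe sets from the control ran from -0.35 to 0.20 (log2) in line 1 and from -0.40 to 0.28 in line 2, with medians of -0.06 and -0.02 against -0.01 and -0.02 over all probe sets. Both comparisons use the same control array, so agreement of the lines is not independent support. Because the genes were chosen with results of these arrays known, their values are given as a description and without a test. In bulk RNA, fewer cells of a kind and less RNA per cell cannot be told apart.

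**Figure D1:**
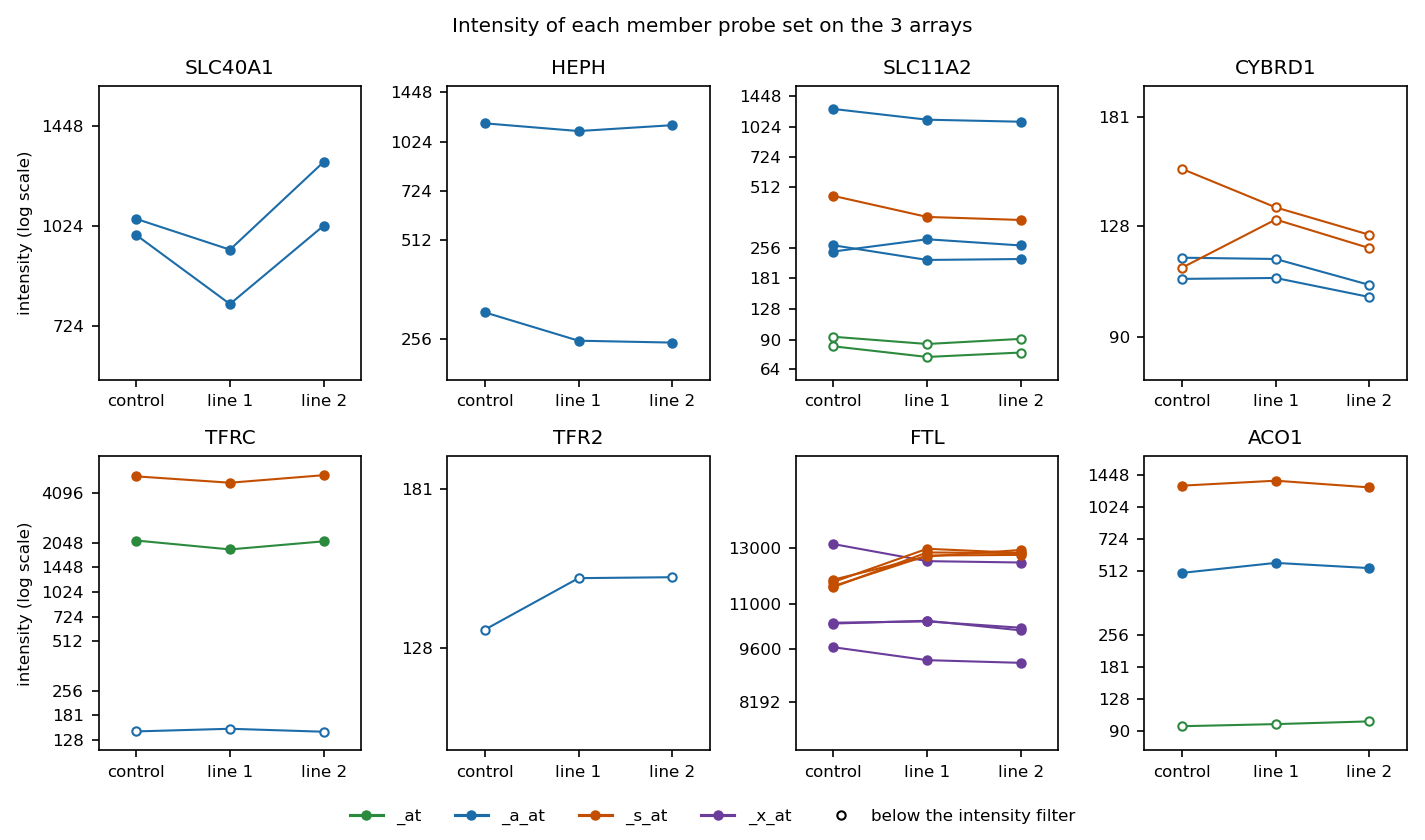
Intensity of each probe set of the 8 genes on the control, line 1 and line 2 arrays, on a log axis whose range differs between panels; each line joins the values of 1 probe set, colours give the probe set type and open points mark probe sets below the intensity filter. Both SLC40A1 probe sets dip in line 1 and are highest in line 2, and the _s_at and _x_at probe sets of FTL go different ways.

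Among these genes the 2 knockdown lines differed most in the iron exporter, and the control lay between them. SLC40A1 encodes ferroportin, the iron exporter of the basolateral membrane. Its probe set 11715788_a_at read 1050 in the control, against 944 in line 1 and 1279 in line 2 (intensity, linear scale). Its other probe set, 11715789_a_at, had 993 in the control and 782 and 1026 in lines 1 and 2. In both, line 1 was the lowest array and line 2 the highest. Relative to the control, line 1 was at 89.9% and 78.8% and line 2 at 121.8% and 103.3% in the first and second probe set. The mean log2 difference from the control was 0.07 ± 0.31 (SD, n = 2 lines) for the first and -0.15 ± 0.28 for the second, which is smaller than the spread between the lines in each case.

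Between the lines SLC40A1 was 1.35-fold and 1.31-fold higher in line 2. These were the 2 of 20 member probe sets that differed by at least 1.3-fold between lines 1 and 2, against 0.662% of all probe sets, 0.0794% with line 2 higher and 0.582% with line 1 higher. The set was selected on results of these arrays that already showed SLC40A1 to differ between the lines, so nothing is read from this count. By the absolute difference between lines the probe sets ranked 69 and 129 of 22670. Differences of 1.3-fold with line 2 higher were found in 18 probe sets in all, and those with line 1 higher in 132. With a single array per line, the difference cannot be assigned to the hairpin rather than to the culture or the array.

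**Figure D2:**
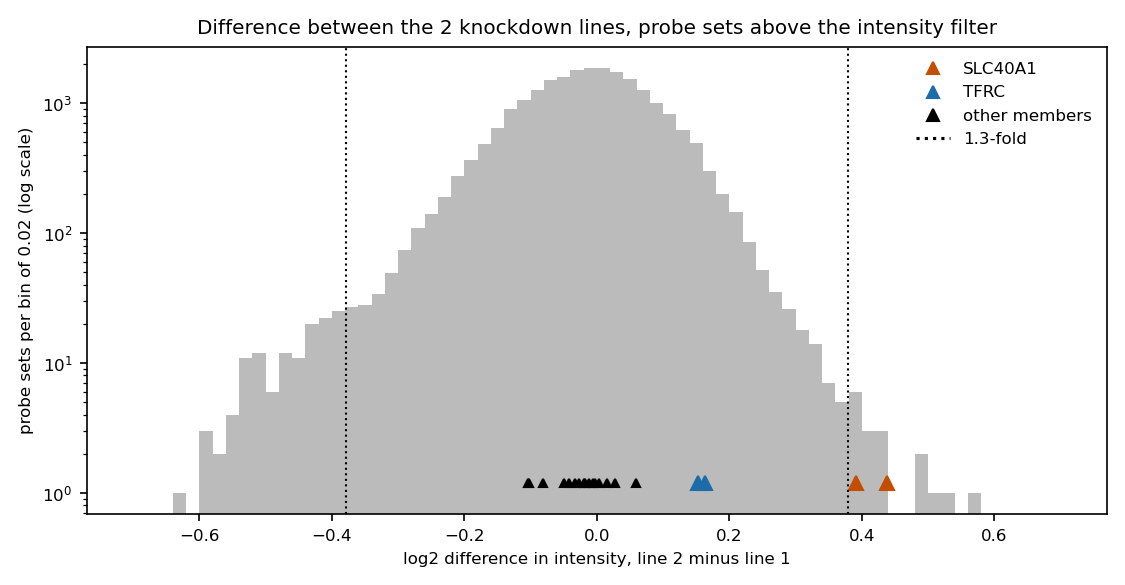
Histogram of the log2 difference in intensity between line 2 and line 1 for the 22670 probe sets above the filter, with a log count axis; triangles mark the 20 member probe sets and dotted lines a 1.3-fold difference. The 2 SLC40A1 probe sets lie beyond the line at 0.39 and 0.44, TFRC at 0.15 and 0.16, and the other 16 between -0.10 and 0.06.

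The 4 genes outside the set whose pair of differences from the control lay nearest to that of SLC40A1 (probe set 11715788_a_at), out of 11329 genes above the filter read by 1 probe set each, were PTGS2, DUSP5, SLC7A8 and FSD1. Nearness was the Euclidean distance between pairs of log2 differences over the 3 arrays, and it ran from 0.07 to 0.09. PTGS2, the inducible cyclooxygenase, had 214 in the control, against 201 in line 1 and 253 in line 2. DUSP5, a phosphatase of ERK kinases, had 392, 372 and 470 on the same arrays. SLC7A8, an amino acid transporter, was at 94.2% and 117.7% of the control in lines 1 and 2, and FSD1 at 93.1% and 115.8%. With 3 arrays such likeness describes these values only. It holds for 1 probe set of SLC40A1, since the other, at -0.34 and 0.05 (log2) in lines 1 and 2, was not used in the search. PTGS2 also lay close to the filter of 184.

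HEPH encodes hephaestin, the copper oxidase that works beside ferroportin. Its 2 probe sets gave different sizes. Probe set 11718153_a_at had 309 in the control and 253 and 250 in lines 1 and 2, so both knockdown arrays lay below the control, at 81.9% and 80.9% of it (log2 difference -0.30 ± 0.01, SD, n = 2 lines). Probe set 11718154_a_at had 1166, 1104 and 1150, which is 94.7% and 98.7% of the control (-0.05 ± 0.04). Unlike SLC40A1, HEPH was alike in the lines, which were 1.01-fold and 1.04-fold apart.

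On the luminal side, SLC11A2 encodes DMT1, the proton-coupled importer of ferrous iron, and 6 probe sets read it. Of the 4 above the filter, 3 were lower than the control in both lines. Probe set 11744052_a_at had 1255 in the control, against 1110 in line 1 and 1085 in line 2 (88.5% and 86.4% of the control). Probe set 11764275_s_at had 465 in the control and 366 and 353 in lines 1 and 2, at 78.6% and 76.0%, the furthest from the control of all 20 member probe sets in both lines. Probe set 11744053_a_at had 264, 224 and 226 (84.6% and 85.5%). Their mean log2 differences were -0.19 ± 0.02, -0.37 ± 0.04 and -0.23 ± 0.01 (SD, n = 2 lines), each larger than the spread between the lines, with the control's own spread unknown.

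The fourth SLC11A2 probe set above the filter went the other way. Probe set 11759691_a_at had 246 in the control against 283 in line 1 and 264 in line 2, or 115.0% and 107.2% of the control (0.15 ± 0.07). SLC11A2 is transcribed and spliced into several forms, with and without an iron-responsive element near the end, but the annotation used here does not say which form each probe set reads. The remaining pair, 11759690_at and 11759527_at, lay below the filter at 73.8 to 93.0 on all arrays.

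A size of 1.2-fold in both lines, chosen after the values were seen, was reached by 2 of 20 member probe sets, SLC11A2 11764275_s_at and HEPH 11718153_a_at, both lower. Of all probe sets 3.02% were lower and 10.4% higher by that size. No member probe set was higher by it in both lines, and none of the 20 reached 1.3-fold in both lines, against 6.22% of all (5.5% higher and 0.723% lower). The SLC11A2 and HEPH probe sets past 1.2-fold read 465 and 309 in the control, within the 291 to 662 of the erythroid markers. The part of background in their values was not tested.

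**Figure D3:**
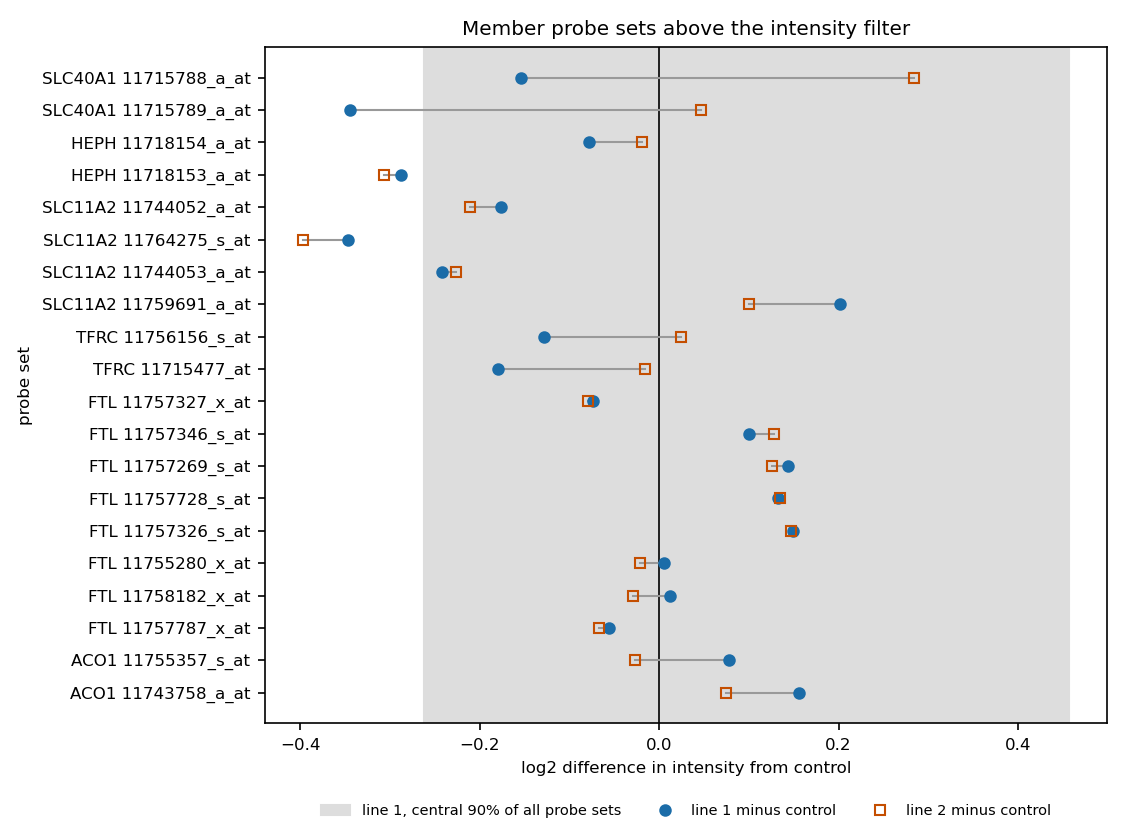
Log2 difference in intensity from the control in line 1 (filled circles) and line 2 (open squares) for the 20 member probe sets above the filter, joined by a line, with the range from -0.26 to 0.46 that holds all but the outermost 5% on each side of all probe sets in line 1 in grey. SLC40A1 has the longest joins, 1 probe set each of SLC11A2 and HEPH lies left of the grey band in both lines, and the FTL probe sets split by type.

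CYBRD1, the ferric reductase of the duodenal brush border (Dcytb), was dim. Its 4 probe sets lay below the filter, between 102 and 153 on the 3 arrays. The lines were 1.06-fold to 1.09-fold apart, with line 1 higher in all 4. Probe set 11758590_s_at had 153, 136 and 125 in the control, line 1 and line 2, and probe set 11716308_s_at had 112, 131 and 119, so they differ in direction. At this signal a difference in CYBRD1 mRNA cannot be separated from background.

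TFRC, the receptor for transferrin-bound iron, was well above the filter in 2 of its 3 probe sets. Probe set 11756156_s_at had 5188 in the control, against 4745 in line 1 and 5275 in line 2. Probe set 11715477_at had 2107, 1860 and 2084. In both, line 1 was the lowest array, at 91.5% and 88.3% of the control, while line 2 was within 2% of it, at 101.7% and 98.9%. Line 2 exceeded line 1 by 1.11-fold and 1.12-fold, the same direction between the lines as in SLC40A1. The mean differences from the control of -0.05 ± 0.11 and -0.10 ± 0.12 (SD, n = 2 lines) were smaller than the spread between the lines. Quantile normalization and cyclic loess put line 2 slightly below the control for 11756156_s_at, at -0.07 and -0.04. The third probe set, 11715478_a_at, lay below the filter at 144 to 150.

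TFR2, the second transferrin receptor, which senses transferrin saturation mainly in the liver, was read by 1 probe set below the filter. It had 133 in the control and 149 in both lines, which is 111.9% and 112.1% of the control. The lines were 1.002-fold apart, but the signal is that of a dim probe set.

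FTL, the ferritin light chain, was read by 8 probe sets near the top of the scale, where at most 0.20% of probe sets were brighter in the control. FTL has processed copies in the genome, and probe sets of the types _s_at and _x_at can match more than a single transcript. The 4 probe sets of type _s_at had intensities of 11564 to 11822 in the control. They had 12675 to 12969 in line 1 and 12734 to 12923 in line 2. As deposited, each thus lay above the control in both lines, at 107.2% to 110.9% of it. All 4 are named for the same gene and were read on the same arrays, so they are not replicates. The share of bright probe sets above the control in both lines is not given here, so nothing is read from their shared direction. Medians of bright probe sets are given below. The 4 of type _x_at were at 95.0% to 100.8% in line 1 and 94.6% to 98.5% in line 2. The lines themselves differed by at most 1.03-fold in any FTL probe set. The medians were 0.14 and 0.13 (log2, lines 1 and 2) for _s_at and -0.03 and -0.05 for _x_at.

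The direction of FTL thus depended on the probe set, and also on how the arrays were scaled. Among all probe sets with a mean log2 intensity of at least 13, FTL included, the median difference was 0.14 and 0.15 for 44 of type _s_at and 0.11 and 0.15 for 93 of type _x_at in lines 1 and 2. The FTL _s_at values were near these medians, and the FTL _x_at values below them. After quantile normalization the 4 _s_at probe sets lay between -0.03 and 0.04 (log2 difference) in line 1 and between -0.02 and 0.00 in line 2, with 1 below the control in line 1 and 3 in line 2. After cyclic loess they lay between -0.01 and 0.04 in line 1 and between 0.00 and 0.02 in line 2, with 1 below the control in each line. Under both scalings the _s_at probe sets lay on either side of the control in line 1. The _x_at probe set 11757327_x_at lay at -0.19 and -0.23 after quantile normalization and at -0.19 and -0.21 after cyclic loess.

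ACO1 encodes the iron regulatory protein that doubles as cytosolic aconitase. Probe set 11755357_s_at had 1290 in the control and 1361 and 1266 in lines 1 and 2, and probe set 11743758_a_at had 501, 558 and 528. Line 1 was the highest array in both, at 105.5% and 111.4% of the control. It exceeded line 2 by 1.08-fold and 1.06-fold, the reverse of SLC40A1 and TFRC. The mean differences were 0.03 ± 0.07 and 0.12 ± 0.06 (SD, n = 2 lines). The third probe set lay below the filter at 95.0 to 100.1.

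The wider iron pathway was described from 6 lists outside the set, with 98 genes, of which 78 had 184 probe sets above the filter. Here the knockdown lines were compared with the control by limma, which treats the lines as a group with 1 residual degree of freedom and assumes that the lone control varies like them. Of the 184 probe sets 17 rose and 7 fell at a limma adjusted p of 0.05, which is 9.24% and 3.80%, against 11.3% and 3.92% of all 22670 probe sets. These shares lay near the background. By size, 2 were at least 1.5-fold higher and 0 lower in both lines, against 1.41% and 0.11% of all probe sets. Probe sets of list genes are counted above the filter. In 14 of the 18 genes called by limma some but not all probe sets above the filter passed. In GLRX5, HIF1A, VEGFA, FBXL5 and ISCA1 only a probe set of type _s_at passed, and in CPOX, RBX1, CLPX and ADM only an _a_at one. All _s_at probe sets above the filter had medians of 0.07 and 0.06 (log2, lines 1 and 2), against -0.01 and -0.02 over all types. The part of probe set type in these rises was not tested. Quantile normalization ended the calls of 1 PCBP2 and 2 HSPA9 probe sets.

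**Figure D4:**
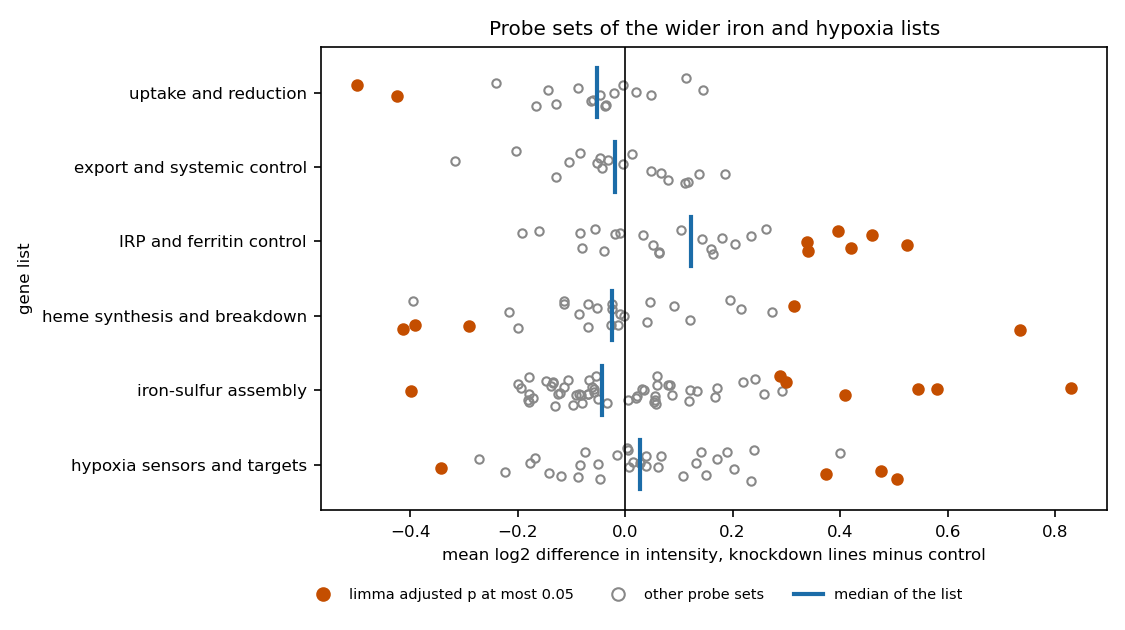
Mean log2 difference of the knockdown lines from the control for each of the 184 probe sets above the filter in the 6 wider lists; filled points passed a limma adjusted p of 0.05, open points did not, and vertical bars are list medians. The called probe sets of the list of iron regulatory protein and ferritin control all lie to the right, and those of heme synthesis and breakdown on both sides.

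Control of iron regulatory proteins and ferritin had the highest medians of the 6 lists, 0.12 and 0.09 (log2, lines 1 and 2), with 6 of 26 probe sets, from 5 of 11 genes, that rose. By limma 0 fell. Of all probe sets 11.3% rose and 3.92% fell by limma at the adjusted threshold. The list was chosen with earlier results of these data known, so nothing is read from its rank or counts. At an unadjusted p under 0.05, 10 of the 26 were higher and 1 lower. The share of all probe sets at that unadjusted threshold is not given here, so nothing is read from counts at it. The medians of 2 marker lists were higher still: 6 of 14 hepatocyte-like probe sets rose and 1 fell, with medians of 0.23 and 0.25, and 7 of 32 epithelial ones rose and 3 fell, with medians of 0.19 and 0.17. Their part in the values of this list was not tested. FBXL5 is the iron-sensing adaptor through which iron regulatory proteins are sent for degradation, and its probe set 11721315_s_at had 134.4% and 128.8% of the control in lines 1 and 2 (log2 difference 0.40 ± 0.08 SE, limma adjusted p = 0.013), with the other at 115.4% and 115.0%. Parts of the same type of ubiquitin ligase were RBX1, with 147.8% and 139.9% in 1 probe set and 111.7% and 115.0% in the other, and SKP1, with 129.3% and 124.0% in 1 of 3. The other SKP1 probe sets did not pass, at 105.1% and 103.9% and, below the control, at 85.6% and 89.6%. EPAS1, the hypoxia factor HIF-2alpha, whose mRNA carries an iron-responsive element, rose in its only probe set above the filter (134.8% and 140.4%, 0.46 ± 0.08 SE, limma adjusted p = 0.0071). A dimmer EPAS1 probe set, 11715412_a_at, was at 87.4% and 90.5%, and the mean of both did not pass.

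PCBP2, an RNA-binding protein that also hands iron to ferritin, rose in 2 of 8 probe sets, at 121.1% to 129.4% in line 1 and 132.1% to 138.2% in line 2, and the other 6 did not pass. NCOA4, the receptor for ferritin breakdown, had 120.7% and 119.2% in probe set 11734970_s_at and did not pass (limma adjusted p = 0.052). ALAS2, whose element is printed above, was at 88.6% and 101.0% in 1 probe set and 88.9% and 100.1% in the other.

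In heme synthesis and breakdown 2 probe sets rose and 3 fell of 27, against 11.3% and 3.92% of all probe sets. The list medians were -0.04 and -0.03. HMOX1, heme oxygenase 1, which frees iron from heme, fell in all 3 of its probe sets above the filter. The first, 11716939_a_at, had 1060 in the control, and the lines stood at 73.1% and 77.2% of it (-0.41 ± 0.08 SE, limma adjusted p = 0.012), and the other 2 at 75.1% to 81.5% in line 1 and 77.5% to 82.0% in line 2. CPOX, an oxidase of heme synthesis, rose by 1.66-fold and 1.67-fold in 11755686_a_at (limma adjusted p = 0.0016), but its other probe set was at 112.4% and 100.9%. CLPX, a mitochondrial protease subunit that acts on the first heme enzyme, rose in 1 of 3 probe sets, at 126.0% and 122.7%.

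Iron-sulfur cluster assembly had 6 probe sets that rose and 1 that fell of 60, against 11.3% and 3.92% of all probe sets. Its medians were -0.05 and -0.02. CIAO2A, a factor of cytosolic assembly that has been tied to the maturation of ACO1, rose in both of its probe sets above the filter, by 1.75-fold and 1.81-fold in 11757697_s_at (0.83 ± 0.08 SE, limma adjusted p = 0.0014) and by 1.45-fold and 1.47-fold in 11716359_a_at. GLRX5, a mitochondrial glutaredoxin, rose in 11721674_s_at only (144.3% and 154.7%), with the other 2 at 96.7% to 105.5%. ISCA1, an assembly scaffold, rose in 1 of 2 probe sets, and HSPA9, the mitochondrial chaperone, in 2 of 5, with 2 of the others below the control at 90.2% and 91.9% and at 94.1% and 96.9%. FDX2, the ferredoxin that supplies electrons, fell in its only probe set, to 77.3% and 74.5%.

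Among uptake and reduction genes 0 of 18 probe sets rose by limma and 2 fell, against 11.3% and 3.92% of all probe sets. At an unadjusted p under 0.05, 0 rose, without a share of all probe sets to set beside it. Both that fell were of SLC46A1, a folate transporter of the gut that has also been described as a heme carrier. Its probe set 11736680_a_at had 609 in the control, against 448 in line 1 and 415 in line 2 (-0.50 ± 0.08 SE, limma adjusted p = 0.0066), and 11748455_a_at had 427, 332 and 305. The third probe set did not follow, at 92.8% and 102.5% of the control. SLC22A17, a receptor for lipocalin-bound iron, was at 92.9% and 77.2% in the probe set with the next largest mean difference and did not pass.

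Of 18 probe sets for export and systemic control 0 passed in limma at an adjusted p of 0.05, against 15.3% of all probe sets. At an unadjusted p under 0.05, 1 was higher and 0 lower, without a share of all probe sets to set beside them. By size 0 were called as well. ABCG2, an efflux pump that accepts porphyrins, had 525 in the control and 345 and 515 in lines 1 and 2, so line 1 alone was low, at 65.8% of the control (limma adjusted p = 0.29 for the mean). Line 2 exceeded line 1 by 1.49-fold in ABCG2, the same direction as in SLC40A1. FLVCR1, a heme exporter, was at 91.7% and 82.3% in 1 of 3 probe sets and above the control in the other 2, at 113.9% and 106.2% and at 111.5% and 104.8%. Its relative FLVCR2 was at 114.3% and 113.1%. HAMP, the hormone hepcidin that removes ferroportin from the membrane, was looked up after the values were seen and had 708, 667 and 825 in its probe set above the filter.

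In hypoxia sensors and targets, which share regulation with intestinal iron uptake, 3 of 35 probe sets rose and 1 fell. Among all probe sets 11.3% rose and 3.92% fell by limma. The list medians were 0.11 in line 1 and -0.01 in line 2. HIF1A was at 154.6% and 130.5% in 11718757_s_at and did not pass in its other 4 probe sets. VEGFA rose in 1 of 8 (145.1% and 133.2%, with the other 7 at 89.4% to 119.5% in line 1), the peptide hormone gene ADM in 1 of 3 (121.6% and 138.1%), and the glucose transporter SLC2A1 fell in 1 of 4 (79.0% and 78.8%), with its other 3 at 85.0% to 89.3% in line 1. PDK1 was at 158.5% in line 1 and 109.9% in line 2 and did not pass (limma adjusted p = 0.16). In 2 of the 16 called genes with several probe sets above the filter, CIAO2A and HMOX1, all of them passed. With the mean of all probe sets per gene 5 genes rose (CIAO2A, CPOX, FBXL5, ISCA1 and RBX1) and 3 fell (FDX2, HMOX1 and SLC46A1).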

How the data were processed

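Values of 3 arrays were the authors' deposited intensity per probe set on a linear scale. RMA is named in the submitters' processing notes, and its settings, background treatment and scaling are not given in the sources used here. Intensities were converted to log2 without further scaling. Names came from the platform annotation table (44988 with 1 symbol, 1832 with several, 2473 with none, 102 array controls), and 44961 were looked up in RefSeq (GRCh38.p14), with 0 symbols changed. Counts used probe sets whose mean reached the median of all 49395 (log2 7.52). Changes were called at 1.5-fold in both lines, or by limma 3.58.1 in R 4.3.3 (lmFit and eBayes, Benjamini-Hochberg over 22670 probe sets, total df 8.38). The labels do not call the 2 lines repeats of a culture. With 1 residual degree of freedom, the p-values rest on the distance between these 2 arrays, mostly as pooled over all probe sets. The SE is thus near 0.08 even for CPOX 11755686_a_at, which was at 0.73 and 0.74 (log2) in lines 1 and 2. The spread of the control was not measured. On simulated data for knockdown against control over 22670 probe sets, the size rule found 80 and limma 100 of 100 changed by log2 0.7. Both found 100 of 100 changed by 1.2, and of 22470 unchanged the size rule called 0 and limma 71. Noise for all 3 simulated arrays, the control included, was drawn from the difference between the 2 lines. The simulation therefore cannot show the error that a single control array brings. The members and lists were chosen with earlier results of these data known. The genes named are all members, the called genes of each list (up to 3 with the largest differences where none passed) and the 4 genes nearest to SLC40A1. Alternatives were other folds, filters, scalings, a normexp background, 1 value per gene and leaving out a line. Python 3.11.15 with pandas 2.3.3 was used for the rest.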

Additional observations from a re-analysis of the deposited data

How the results depend on the processing

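With 1 probe set for each of the 8 genes, 18 of 24 values under another scaling or background lay within 1 SD of the 2 lines of the value given and 6 further away, and of the means over a gene's probe sets 3 of 7. This SD ran from 0.002 (TFR2) to 0.31 (SLC40A1). The counts thus depend on how alike the lines were, and do not measure robustness. Quantile normalization changed the sign of 3 of 20 member probe sets in line 1 and of 5 in line 2 (1 of them to 0), cyclic loess of 3 and 3, and normexp of 0. These were FTL and TFRC probe sets, and HEPH with cyclic loess. They include FTL _s_at values of 0.10 to 0.15 as deposited. Calls of members stayed at 0 higher and 0 lower at 1.5-fold in both lines under every alternative except 1.2-fold, with 2 lower. Member probe sets 1.3-fold apart between lines numbered 2, against 0 at 1.5-fold and 1 with a single value per gene, brightest or mean. Over all probe sets, 150 were 1.3-fold apart, 2 were 1.5-fold apart, and 83 (brightest) or 42 (mean) genes were 1.3-fold apart.

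The 319 higher and 25 lower calls by size became 2352 and 685 at 1.2-fold, 1247 and 164 at 1.3-fold, 15 and 4 at 2-fold, and 44 and 9 with the mean per gene. The higher calls were 154 with the brightest probe set per gene, and the lower ones 15 with the filter at the 75th percentile. Without one line, lower calls ranged from 37 to 65 (65 without line 1), and higher ones from 434 to 469. The 2573 higher and 889 lower limma calls became 1091 and 347 with the brightest probe set and 660 and 316 with the mean, which test fewer features, and 1474 were lower with quantile normalization. For the wider lists the 2 higher and 0 lower calls by size became 15 and 7 at 1.2-fold, 9 and 1 at 1.3-fold, and 0 higher at 2-fold or with the mean, and without one line they ranged from 3 to 4 and from 0 to 1. Their 17 higher and 7 lower limma calls became 11 and 2 with the brightest probe set and 5 and 3 with the mean, with 12 lower after quantile normalization and 11 after cyclic loess. Of the 24 called probe sets of the lists 21 stayed called with quantile normalization and 24 with cyclic loess, normexp, limma trend, limma robust or no filter, and all 20 that passed the stricter filter. The cause of the shifts with scaling was not tested. No limma test is possible without one line, since no residual degree of freedom is left. No paired analysis was possible because the control has 1 array. Signal over background limits CYBRD1 and TFR2.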
